A study of Homo sapiens with 8 samples.

Results

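The genes described here are 40 genes of the G2 phase and of mitosis, among them the CDK1 kinase and its cyclins, the mitotic kinases, the spindle checkpoint, the kinetochore, mitotic motors and the machinery of cytokinesis. A member was measured by the probe sets whose array annotation named that gene alone, and the probe set with the highest mean over the 8 arrays stood for it. By this rule 39 of the 40 were measured, among 18244 genes in all. PTTG1, the gene of securin, had no probe set of its own, because the array annotation pairs it with a related sequence, and it was not analysed here.

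The arrays came from A549 and PC9, established cell lines from human lung adenocarcinoma, which is non-small cell lung cancer. Each line was infected with retrovirus made in 293FT packaging cells that carried either EN2, a homeobox transcription factor gene, or the control Neo construct, and stable cells were selected with genemycin. This gave 4 groups of 2 arrays: A549 with EN2, A549 with vector (labelled NC), PC9 with EN2 and PC9 with vector. All cells therefore carried a retroviral insert and had gone through the same selection. A549 grew in F-12K and PC9 in Dulbecco's modified Eagle medium, so the medium and the line cannot be told apart. The sources used here give neither the promoter that drives EN2 nor whether the stable cells were clones or mixtures. Nothing in the labels says that replicates came from separate cultures, so p-values measure the spread between these arrays, which may be technical.

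Genes of G2 and mitosis are transcribed in waves, low in resting cells and in G1 and high as cells approach division. Many of them are held down by the DREAM complex in resting cells and activated by B-MYB, MuvB and FOXM1 in cycling cells. Their promoters often hold a cell cycle genes homology region, the CHR, and CCAAT boxes bound by NF-Y. In tumours and cell lines the summed level of these genes is widely used as a readout of proliferation.

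The promoters of 33 of the 40 genes were found in RefSeq on GRCh38.p14, as 43 start sites. In the 250 bases before the start, a CHR (TTTGAA or TTCGAA, both strands) was present in 21 of the 43 (48.8%), against 14.3% of 35116 promoters of all genes. A CCAAT box (CCAAT, or ATTGG on the other strand) was present in 32 of the 43 (74.4%), against 32.0% of all. Both motifs were present in 18 (41.9%), against 5.05% of all, and neither in 8 (18.6%), against 58.7%. Where they abut, the motifs can share an end base. Some genes have several start sites with overlapping windows, so the 43 are not independent. Below are the 200 bases before the start of 4 genes, chosen as examples. CDK1 was the single member called with EN2. PLK1 and CCNB2 hold both motifs, the former with a wide and the latter with a near-zero difference between the vector controls. KIF2C holds neither. All 4 are on the plus strand, 5′ to 3′, with CHR and CCAAT letters in capitals.
CDK1, chr10:60778131-60778330: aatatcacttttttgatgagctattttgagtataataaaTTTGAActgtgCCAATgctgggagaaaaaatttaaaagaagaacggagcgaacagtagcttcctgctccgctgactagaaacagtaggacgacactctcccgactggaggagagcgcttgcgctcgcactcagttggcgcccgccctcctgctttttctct
PLK1, chr16:23678689-23678888: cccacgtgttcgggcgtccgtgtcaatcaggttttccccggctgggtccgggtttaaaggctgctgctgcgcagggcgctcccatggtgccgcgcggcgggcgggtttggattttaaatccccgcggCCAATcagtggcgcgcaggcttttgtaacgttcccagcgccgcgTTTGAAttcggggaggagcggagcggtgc
CCNB2, chr15:59104946-59105145: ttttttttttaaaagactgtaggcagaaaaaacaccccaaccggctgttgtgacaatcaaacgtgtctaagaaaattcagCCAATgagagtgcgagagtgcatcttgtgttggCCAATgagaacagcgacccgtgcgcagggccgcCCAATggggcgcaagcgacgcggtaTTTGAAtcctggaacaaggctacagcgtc
KIF2C, chr1:44739637-44739836: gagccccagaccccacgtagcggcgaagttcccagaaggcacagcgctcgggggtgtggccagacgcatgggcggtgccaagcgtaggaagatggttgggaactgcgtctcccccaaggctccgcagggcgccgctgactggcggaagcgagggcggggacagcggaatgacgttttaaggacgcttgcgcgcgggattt
The CDK1 letters lie at position -161 (CHR) and -150 (CCAAT), counted from the first transcribed base. CDK1 has a second RefSeq start downstream. The window before that start holds CHR letters at -69 and -13 and CCAAT letters at -78 and -46. In PLK1 and in CCNB2 the CHR lies at -29, and CCNB2 has 4 CCAAT boxes in the searched window, 3 of them in the bases shown. A match of letters is a description of the sequence and does not show that a factor binds there.

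Values are log2 RMA signals as the authors deposited them. Array medians ran from 6.33 to 6.35 in A549 and from 6.10 to 6.11 in PC9. All 39 members lay above the 95th percentile of the spike-in probe sets on every array, as did 79.5% of all genes. Of a fixed list of 11 lung epithelial and adenocarcinoma genes, 11 lay above that level in both lines. So did 3 of 4 haematopoietic and 2 of 3 fibroblast genes in both lines, and 2 of 3 endothelial genes in A549 and 3 of 3 in PC9. PTPRC, the pan-leukocyte gene, and COL3A1, a fibroblast collagen gene, lay below it in both. The brighter EN2 probe set read 7.71 and 7.62 in the A549 EN2 arrays and 6.48 and 6.57 in the A549 vector arrays, a log2 change of 1.15 ± 0.091 (SE; limma adjusted p = 0.00028). In PC9 it read 6.24 and 6.39 with EN2 and 5.86 and 5.78 with vector, a change of 0.50 that did not pass (adjusted p = 0.0801). The dimmer EN2 probe set did not separate in A549, at 6.46 and 6.34 with EN2 against 6.33 and 6.38 with vector. Nor did it separate in PC9, at 5.19 and 5.20 with EN2 against 5.29 and 4.78 with vector.

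With EN2 in A549, CDK1 rose 1.47-fold and no other member was called. At an adjusted p below 0.05 in limma's test, 1 of 39 members was called higher and 0 lower, against 2.72% of all genes called, 1.57% higher and 1.15% lower. The members' changes centred on 0: their median log2 change was 0.012 (all genes, −0.0015), and they ran from −0.52 for CDC20 to 0.55 for CDK1. Of the 39, 21 lay above 0 (53.8%), against 49.3% of all genes. In 38 of the 39 the 95% interval of the change lay within 2-fold either way, as it did in 98.8% of all genes. At an unadjusted p under 0.05 there were 3 members, CDK1, CDC25B and ECT2, all higher (7.69% of the members, against 17.4% of all genes). By role, the A549 medians ran from −0.32 for the 3 genes of the anaphase promoting complex and separase to 0.18 for the 5 checkpoint genes. In bulk RNA, a change in the share of cells in G2 and mitosis and a change in RNA per cell cannot be told apart.

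**Figure D1:**
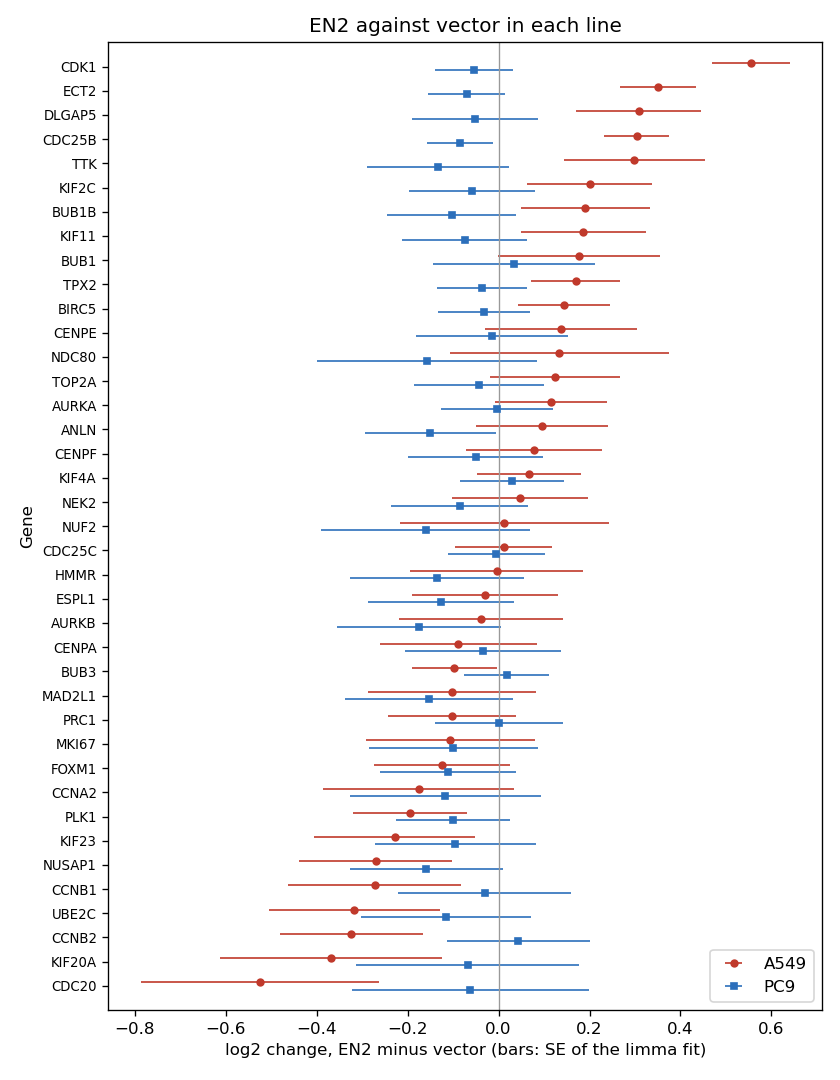
Log2 change, EN2 minus vector, of the 39 genes in A549 (circles) and PC9 (squares), ordered by the A549 change; bars are the SE of the limma fit (4 groups of 2 arrays). The A549 changes spread from −0.52 to 0.55 around 0, while the PC9 changes stay between −0.17 and 0.044.

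CDK1 encodes the kinase that drives entry into mitosis. It read 9.70 and 9.82 in the A549 EN2 arrays and 9.23 and 9.18 in the vector arrays. The EN2 arrays both lay above the vector arrays, with means of 9.76 ± 0.080 and 9.21 ± 0.034 (SD, n = 2 arrays each). The log2 change was 0.55 ± 0.086 (SE; limma adjusted p = 0.0111). A second CDK1 probe set gave 0.60, while another, which read 3.95 to 4.19 in A549, was below the spike-in level on all 4 A549 arrays and gives no change there. The call ended without vector replicate 2 (0.53, adjusted p = 0.0938), on the mean of the CDK1 probe sets, that dim one included (0.39, adjusted p = 0.18), and on the A549 arrays alone (adjusted p = 0.0719).

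Of the CDK1 partners and phosphatases, CDC25B stood next to it. This phosphatase removes inhibitory phosphates from CDK1, and it read 11.88 and 11.95 with EN2 against 11.58 and 11.64 with vector in A549. Its arrays did not overlap, but the change of 0.30 ± 0.072 missed the threshold (limma adjusted p = 0.0604). Its other 4 probe sets gave 0.13, 0.20, −0.018 and −0.059. The related phosphatase gene CDC25C did not separate, at 7.34 and 7.44 against 7.25 and 7.50. The cyclins lay on the other side of 0. CCNB2, a B-type cyclin, read 8.89 and 9.35 with EN2 and 9.24 and 9.65 with vector, overlapping ranges with a change of −0.32 (adjusted p = 0.332). CCNB1, the main cyclin partner of CDK1, had −0.27, and CCNA2, the cyclin of S phase and G2, had −0.18, neither called.

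ECT2 activates RhoA for the contractile ring at cytokinesis. It read 10.50 and 10.61 in the A549 EN2 arrays and 10.16 and 10.24 in the vector arrays, with no overlap. The change was 0.35 ± 0.084 (limma adjusted p = 0.0635), and its second probe set gave 0.42. On the mean of its probe sets ECT2 passed (0.38, adjusted p = 0.0348), as it did on the second alone with every probe set tested (adjusted p = 0.0424). DLGAP5, a spindle assembly factor, read 8.01 and 8.46 with EN2 against 7.90 and 7.95, a change of 0.31 (adjusted p = 0.289). TTK, the apical kinase of the spindle checkpoint, read 7.57 and 7.96 against 7.46 and 7.48. In both genes the replicate 1 EN2 array lay only just above the vector arrays. CDK1, CDC25B, TTK, ECT2 and DLGAP5 were the 5 members whose EN2 arrays both lay above both vector arrays (12.8% of the members, against 24.1% of all genes), and 0 members had both below (against 23.5%).

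The most negative A549 change was that of CDC20, the coactivator that turns on the anaphase promoting complex. It read 8.83 and 9.62 with EN2 and 9.39 and 10.11 with vector. The spread within each group, 0.56 and 0.51 (SD, n = 2), was as large as the change of −0.52 ± 0.26 (limma adjusted p = 0.346). UBE2C, the ubiquitin-conjugating enzyme of the same complex, showed the same layout at 10.19 and 10.81 against 10.58 and 11.05, a change of −0.32. KIF20A, a kinesin of the central spindle, read 6.34 and 7.06 against 6.77 and 7.36, a change of −0.37 (adjusted p = 0.512). In all 3 the EN2 and vector ranges overlapped.

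**Figure D2:**
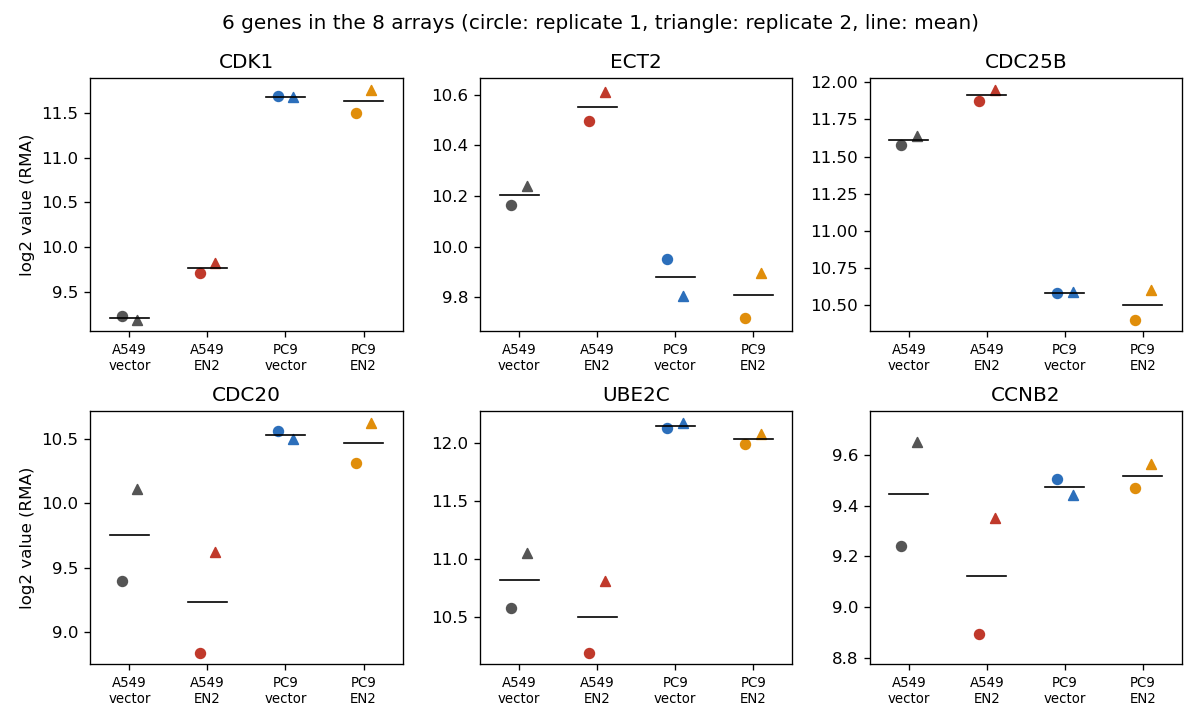
Log2 values of 6 genes on all 8 arrays (circles, replicate 1; triangles, replicate 2; lines, group means of 2 arrays; each panel has its own axis). In A549, the EN2 arrays of CDK1, ECT2 and CDC25B lie above both vector arrays, whereas those of CDC20, UBE2C and CCNB2 overlap with them and replicate 1 is the lower array of each A549 group.

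In PC9 no member was called with EN2. Limma called 0 of 39, against 0.367% of all genes, and 0 had an unadjusted p under 0.05, against 6.75%. The median log2 change was −0.070 (all genes, 0.004), with a range from −0.17 for AURKB to 0.044 for CCNB2, and 5 members lay above 0 (12.8%, against 52.0% of all genes). All 39 of the 95% intervals lay within 2-fold either way (99.5% of all genes), so a change of that size was outside the interval of each member in this line. CDK1 read 11.50 and 11.76 with EN2 and 11.70 and 11.68 with vector, a change of −0.055 with a 95% interval from −0.25 to 0.14.

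AURKB, the kinase of the chromosomal passenger complex, read 8.98 and 9.35 in the PC9 EN2 arrays and 9.30 and 9.37 in the vector arrays. NUF2, an NDC80 complex subunit of the outer kinetochore, read 7.60 and 8.03 against 8.09 and 7.86, a change of −0.16. In both, the low EN2 array was replicate 1. NUSAP1, a spindle microtubule binder, read 8.88 and 9.13 against 9.14 and 9.19, and here both EN2 arrays lay below both vector arrays. UBE2C and the centrosomal kinase gene NEK2 had that layout too, 3 members in all (7.69%, against 15.2% of all genes). At the upper end, CCNB2 read 9.47 and 9.56 against 9.50 and 9.44. The checkpoint kinase gene BUB1 (0.034) and KIF4A, a chromosome-bound kinesin (0.030), were the next highest, and both were within the spread of their arrays.

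For no member was the EN2 change called different between the lines. The difference, A549 minus PC9, was called in 0 of 39 members by limma, against 0.784% of all genes, and 3 members had an unadjusted p under 0.05 (CDK1, CDC25B and ECT2), against 11.9%. For CDK1 it was 0.61 ± 0.12 (adjusted p = 0.0627), with a 95% interval from 0.34 to 0.88. Without PC9 EN2 replicate 2 this difference passed (0.74, adjusted p = 0.0438). TTK (0.43, adjusted p = 0.488) and ECT2 (0.42, adjusted p = 0.194) followed. CDC20 (−0.46), CCNB2 (−0.37) and KIF20A (−0.30) were the lowest, none called.

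In every group but PC9 with vector, the members moved together between replicates, and by more than the median EN2 change. In A549 with EN2, replicate 1 lay below replicate 2 in 39 of 39 members, against 51.5% of all genes. In A549 with vector it did so in 38 of 39, against 48.1%, and the exception was CDK1. Both groups shared that order in 38 members, against 29.6% of all genes. In PC9 with EN2 it held in 39 of 39, against 43.9%, while in PC9 with vector it held in 13 of 39, against 53.1%.

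The median gap, replicate 1 minus replicate 2, was −0.45 in A549 with EN2, −0.29 in A549 with vector and −0.24 in PC9 with EN2. In PC9 with vector it was 0.022. Over the same groups the members' median SD was 0.32, 0.21, 0.17 and 0.035, beside 0.065, 0.065, 0.068 and 0.065 over all genes. Only in the PC9 vector arrays was the members' median SD below that of all genes. NDC80, the core kinetochore coupler, had 6.24 and 7.03 in A549 with EN2, and CDC20 had 8.83 and 9.62, the wide end of this shift. TOP2A, the decatenating topoisomerase, had 10.49 and 10.50 in PC9 with EN2, the narrow end.

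Setting each array against the mean of its line gave member medians of −0.23 and 0.21 in A549 with EN2 and −0.17 and 0.14 in A549 with vector. In PC9 they were −0.16 and 0.095 with EN2 and 0.053 and 0.015 with vector. Over all genes the same medians lay between −0.0094 and 0.012. PC9 EN2 replicate 1 was the lowest of the 4 PC9 arrays in 35 of 39 members, against 22.5% of all genes. In A549 the lowest array was EN2 replicate 1 in 23 members (30.1% of all genes) and vector replicate 1 in 15 (19.0%).

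**Figure D3:**
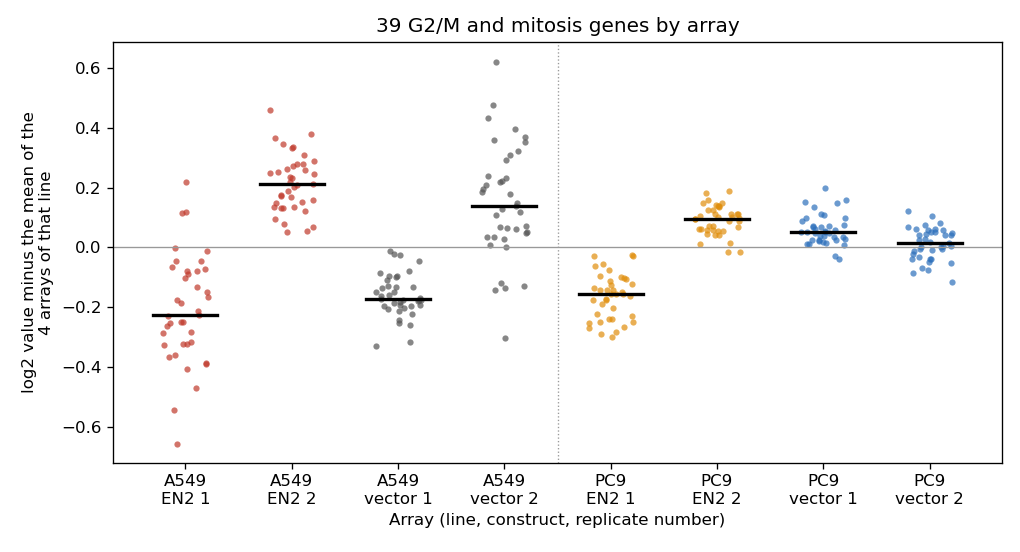
Deviation of each of the 39 genes from its mean over the 4 arrays of its line, on the log2 scale, for the 8 arrays (points, genes; bars, medians). Replicate 1 lies below replicate 2 in both A549 groups and in PC9 with EN2, with medians of −0.23, −0.17 and −0.16 in the 3 lower arrays.

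Same-numbered arrays show what this does to the EN2 comparison. In PC9, EN2 replicate 1 was below vector replicate 1 in 39 of 39 members, with a median difference of −0.20, and EN2 replicate 2 was above vector replicate 2 in 34 of 39, with a median of 0.089. These pairs thus gave opposite directions. In A549 the medians were −0.039 (16 members above 0 and 23 below) and 0.10 (24 above and 15 below). CDC20 differed by −0.56 and −0.49 in the same-numbered A549 pairs, UBE2C by −0.39 and −0.24, and CCNB2 by −0.35 and −0.30. These 3 were among 14 of the 39 members that were lower with EN2 within both pairs, while 15 were higher within both. Shares over all genes are not given for these counts. The EN2 and vector ranges of the 3 genes overlapped, and whether the numbers pair the cultures is not given in the labels. Without A549 EN2 replicate 1 the A549 median of the members was 0.23, and without EN2 replicate 2 it was −0.22, so its direction depended on which array was kept. The PC9 median was 0.058 without EN2 replicate 1 and −0.19 without EN2 replicate 2.

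The 18S rRNA control signal also differed between A549 arrays. It read 11.66 and 12.12 with EN2 and 12.44 and 12.74 with vector. It was thus lower in both EN2 arrays than in both vector arrays, and lower in replicate 1 of each group. In PC9 it ran from 6.05 to 6.10. The difference between 3′ and 5′ actin control probe sets, a sign of RNA integrity, was highest in replicate 1 of both EN2 groups (0.98 in A549 and 1.29 in PC9), against 0.78 to 0.88 on the other A549 arrays and 1.03 to 1.13 on the other PC9 arrays. With the 18S signal as a covariate, on the 4 A549 arrays with 1 residual degree of freedom, the members' median EN2 change became 0.69 (all genes, 0.0044). All 39 then lay above 0, from 0.26 to 1.35, against 9283 of all 18244 genes. Limma called 0 members, with a lowest adjusted p of 0.125, against 5 of all genes. At an unadjusted p under 0.05 there were 37 members, against 1597 of all genes. CDK1 had 0.64 (adjusted p = 0.284) in that fit. The slope on 18S came from the replicates within each group, where 18S and 38 of the 39 members were lower in replicate 1. That slope was then carried across the 18S gap between EN2 and vector. The fit therefore cannot separate an EN2 change from the replicate shift, and no EN2 change is read from it. The part of RNA quality or of rRNA in the results was not tested.

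Between the vector controls, most of the genes were lower in A549 than in PC9. Of 39 members, 31 were called lower in A549 and 4 higher, and 4 were not called. Over all genes 29.7% were called lower and 46.0% higher (75.8% in all), on the values as deposited. The median log2 difference, A549 minus PC9, was −1.10 (all genes, 0.17). At least 2-fold lower were 21 members, against 10.1% of all genes, and at least 4-fold lower were 4, against 2.90%. The sources used here do not say whether the lines were normalised in a single run, so levels set between them carry that limit. The control signals differed between the lines as well: 18S rRNA read 12.44 and 12.74 on the A549 vector arrays and 6.05 and 6.10 on those of PC9, and the actin 3′ to 5′ difference 0.79 and 0.78 against 1.09 and 1.13. Their part in the difference was not tested. After quantile normalisation of all arrays 4 members were called higher and 32 lower (33.8% and 36.8% of all genes), and after median centring 3 and 33 (31.9% and 40.7%).

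**Figure D4:**
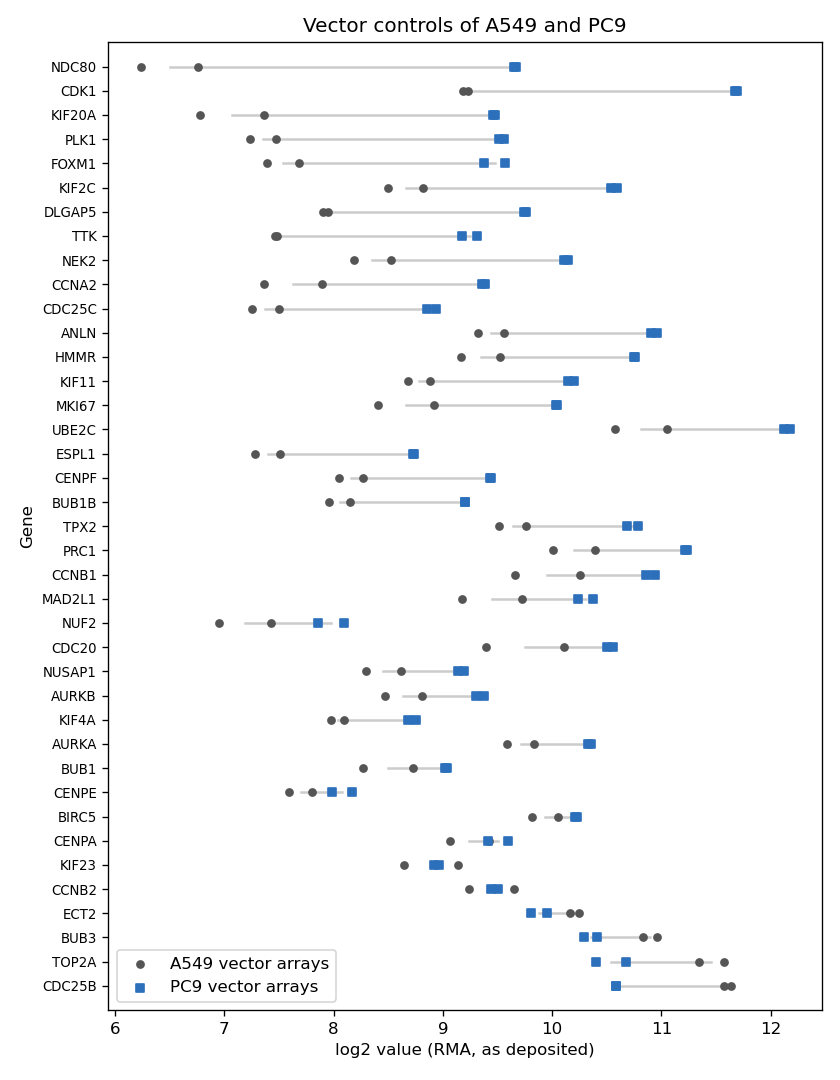
Log2 values of the 39 genes in the vector arrays of A549 (circles) and PC9 (squares), 2 arrays each, with a line joining the group means and genes ordered by the difference. NDC80, CDK1, KIF20A and PLK1, at the top, are at least 4-fold lower in A549, and CDC25B, TOP2A, BUB3 and ECT2, at the bottom, are higher in A549.

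All 4 PC9 arrays, EN2 and vector, lay above all 4 A549 arrays in 29 members (74.4%), against 30.1% of all genes. The opposite held in 4 members, CDC25B, BUB3, TOP2A and ECT2 (10.3%, against 47.0%). In these 33 members the arrays of the lines thus did not overlap, even with the replicate shift described above. This does not make the difference larger than that shift in each of them. CDC20 differed by −0.78 between the vector controls and read 8.83 and 9.62 in A549 with EN2.

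By role, the CDK1 engine split. CDK1 was 5.58-fold lower in A549, at 9.23 and 9.18 against 11.70 and 11.68 in PC9 (log2 difference −2.48 ± 0.086; limma adjusted p = 5.61e-09). CDC25B went the other way and was 2.03-fold higher in A549, at 11.58 and 11.64 against 10.58 and 10.59 (1.02; adjusted p = 7.58e-07), and its 5 probe sets were all higher, by 1.02 to 2.35. CCNA2 (−1.74), CDC25C (−1.52) and CCNB1 (−0.95) were lower in A549. CCNB2 was level between the lines, at 9.24 and 9.65 against 9.50 and 9.44, with a difference of −0.028 and a 95% interval from −0.38 to 0.32. CDC25B and CDC25C, phosphatases of one family, were thus called in opposite directions.

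The 4 mitotic kinases were all lower in A549. PLK1, the polo-like kinase of mitotic entry and spindle assembly, read 7.23 and 7.47 in A549 and 9.51 and 9.56 in PC9 (−2.19; limma adjusted p = 1.78e-07). NEK2 had −1.77, AURKB −0.70 and AURKA, the centrosomal Aurora kinase, −0.63. In the spindle checkpoint, TTK (−1.77), BUB1B (−1.14), MAD2L1 (−0.86) and BUB1 (−0.53) were lower, whereas BUB3, the WD-repeat partner of the BUB kinases, was higher at 10.83 and 10.96 against 10.41 and 10.29 (0.54). UBE2C (−1.34), separase, ESPL1 (−1.33), and CDC20 (−0.78), which act at the onset of anaphase, were all lower.

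Among kinetochore genes, NDC80 showed the widest difference of any member. It read 6.24 and 6.76 in A549 and 9.67 and 9.65 in PC9, 8.94-fold lower (−3.16 ± 0.24; limma adjusted p = 1.39e-06). Its partner in the same complex, NUF2, differed by −0.78. CENPF (−1.28) and BIRC5, the gene of survivin (−0.28), were lower as well, while CENPA, the centromeric histone (−0.26), and CENPE, a kinetochore kinesin (−0.38), were not called.

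Of the other motors, KIF20A read 6.77 and 7.36 in A549 and 9.46 and 9.48 in PC9 (−2.40; limma adjusted p = 1.09e-05). KIF2C, a microtubule depolymerase, had −1.91, KIF11, the bipolar spindle kinesin, −1.39, and KIF4A −0.68. KIF23, the kinesin of centralspindlin, was level at 8.65 and 9.14 against 8.96 and 8.92 (−0.049; 95% interval from −0.45 to 0.35). Centralspindlin's partner ECT2 was higher in A549, at 10.16 and 10.24 against 9.95 and 9.81 (0.32; adjusted p = 0.00565). That call ended after median centring (0.085, adjusted p = 0.375) and without PC9 vector replicate 2 (0.25, adjusted p = 0.0549). The other spindle and cytokinesis genes were lower: DLGAP5 (−1.83), ANLN (−1.49), HMMR (−1.41), TPX2 (−1.10), PRC1 (−1.02) and NUSAP1 (−0.71).

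FOXM1, the transcription factor that drives many of these genes, read 7.39 and 7.68 in A549 and 9.57 and 9.38 in PC9 (−1.94; limma adjusted p = 1.45e-06). MKI67, the gene of the Ki-67 antigen, had −1.37. TOP2A was higher in A549 by the probe set that stood for it, at 11.34 and 11.57 against 10.68 and 10.40 (0.92; adjusted p = 0.000214). Its other 2 probe sets gave −0.32 and −0.11, and the call ended on the mean of the 3 (0.16, adjusted p = 0.315).

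Probe sets of a gene did not always give the same difference between the lines. The 39 members had 107 probe sets, and 12 members had a single one. Of the 107, 100 lay above the spike-in level on all 8 arrays. Among the 26 members with several such probe sets, 21 had all of them on one side of 0 and 5 had both signs (BIRC5, CDC20, KIF4A, MKI67 and TOP2A). With all 107 probe sets counted, 27 members had several, and 8 of these had both signs. CENPA, not called by its brightest probe set, had −1.46, −2.51 and −0.24 on the others. MKI67 had −1.37 on the brightest, while its other 5 ran from −0.67 to 0.34. CDK1 was alike on its 2 probe sets above that level, at −2.48 and −2.65, as was UBE2C on its 4, from −1.34 to −1.02.

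Other genes of the pathway were counted from 9 further lists, of DREAM and MuvB, the anaphase promoting complex, condensin, cohesin, kinetochore partners, spindle, cytokinesis, entry regulators and CDK1 inhibitors. Of 113 measured, 0 were called higher and 2 lower with EN2 in A549, and limma called 0 in PC9. Over all genes the shares called were 1.57% higher and 1.15% lower in A549 and 0.367% in PC9, near those of the lists. At an unadjusted p under 0.05 there were 18 of the 113 in A549 (17.4% of all genes) and 4 in PC9 (6.75% of all genes). The median log2 changes were 0.0012 in A549 and −0.056 in PC9. Between the vector controls 76 were lower in A549, 20 higher and 17 not called, with a median of −0.72, against 29.7% lower and 46.0% higher of all genes and a median of 0.17. All 8 condensin genes were lower in A549, as were 14 of 16 further spindle and motor genes and 17 of 23 kinetochore genes. The anaphase promoting complex had 5 higher and 8 lower of 17, and cohesin had 5 higher and 7 lower of 13. DREAM and MuvB had 2 higher and 8 lower of 11, entry regulators 2 and 7 of 13, and cytokinesis 0 and 4 of 5. The list of 7 inhibitors of the CDK1 engine split into 4 higher and 3 lower.

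The 2 genes called with EN2 in A549 were SPDL1 and SFN. SPDL1, which encodes Spindly, the adaptor that recruits dynein to kinetochores, read 9.45 and 9.77 with EN2 and 10.14 and 10.34 with vector, and fell by 0.63 on the log2 scale (SE 0.12; limma adjusted p = 0.0259). In PC9 it had −0.23 (adjusted p = 0.816), and the difference between the lines did not pass (−0.39, adjusted p = 0.398). SFN, the gene of 14-3-3 sigma, which keeps CDK1 and cyclin B out of the nucleus after DNA damage, read 10.09 and 10.26 with EN2 against 10.60 and 10.77 with vector in A549. It fell by 0.51 (SE 0.077; adjusted p = 0.0108), with no overlap of the arrays. Both calls ended without A549 EN2 replicate 1 (SPDL1 −0.47, adjusted p = 0.177; SFN −0.42, adjusted p = 0.0929) and without A549 vector replicate 2 (−0.53, adjusted p = 0.206, and −0.42, adjusted p = 0.0884). With the 18S covariate SPDL1 had −0.14 and SFN −0.20, and both calls ended there too, as they did on the A549 arrays alone (adjusted p = 0.155 and 0.127).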

How the data were processed

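Total RNA from 4 groups of 2 samples was hybridised to single-colour arrays as biotin-labelled cDNA, per the labels. The authors deposited log2 values of 49495 probe sets. Per the submitters' processing notes these are RMA values, and the sources used here give neither the version nor whether all arrays were normalised in 1 run. The array annotation gave 45284 of them 1 symbol, 1333 several and 2878 none.

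The brightest single-symbol probe set stood for each of 18244 genes, with no filter on dim genes. limma 3.58.1 in R 4.3.3 was fitted to all 8 arrays with a mean per group, 4 residual degrees of freedom and eBayes with an intensity trend. P-values were two-sided and adjusted by Benjamini-Hochberg over all genes, with calls below 0.05. For 2 arrays against 2, the smallest p of an exact permutation test is 0.333. The method was tested on simulated data.

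Named with values were members called in an EN2 comparison, its 3 highest and 3 lowest changes, the 5 highest and 5 lowest between vector controls, and called genes of the other lists; further members were named by role or after their values were seen. The members and lists were chosen with earlier results of these data known. Alternatives were the prior variance, brighter genes only, quantile normalisation, median centring, other uses of probe sets, a line's arrays alone, the replicate block, treat against 1.2-fold, an 18S rRNA covariate and each array left out. Alternatives for SFN and SPDL1 were added after the data were seen. The number of arrays limits the precision.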

Additional observations from a re-analysis of the deposited data

Results flagged for a closer look

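SFN differed between the lines in its EN2 change. The difference, A549 minus PC9, was −0.62 ± 0.11 on the log2 scale (SE; limma adjusted p = 0.0401), the single one of 113 further pathway genes that passed. In PC9 it read 11.03 and 11.00 with EN2 and 10.91 and 10.89 with vector, both EN2 arrays above both vector arrays, but the change of 0.11 did not pass (adjusted p = 0.949). The call of the difference ended when any array was left out other than A549 EN2 replicate 2 or A549 vector replicate 1, and over all 8 such fits the difference ran from −0.70 to −0.53. It also ended after quantile normalisation (−0.60, adjusted p = 0.0556), with a constant prior variance (adjusted p = 0.0855) and with treat against 1.2-fold (adjusted p = 0.559).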

How the results depend on the processing

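The members called higher with EN2 in A549, 1 as reported (287 of all 18244 genes), were 2 after quantile normalisation (CDK1 and CDC25B), against 321 of all genes. With every probe set tested, 3 of 107 were called higher, against 487 of 45284. The count was 0 on the A549 arrays alone (51 of all genes) and 0 with treat against 1.2-fold (43 of all genes). It was also 0 with the 18S rRNA covariate (2 of all genes), where the members' median change was 0.69. Leaving out each array in turn gave 0 to 2 higher in A549 and 0 to 1 for the difference between the lines. The members' median then ran from −0.22 to 0.23 in A549, from −0.19 to 0.058 in PC9 and from −0.12 to 0.29 for the difference, beside a spread between replicates of 0.23 (pooled SD of the members' median). The vector-control median was −1.34 after median centring and −0.78 on the mean of probe sets or with every probe set. In the latter, 15 of the 107 member probe sets were called higher and 65 lower, against 21589 and 12084 of all 45284. The fits with an array left out assume that the array left alone in a group varies like the other groups.

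Same-numbered arrays deviated together across genes with r = 0.349 in A549 and 0.0656 in PC9, too few pairs to show that the numbers pair the samples. The replicate block gave 3 members higher (CDK1, CDC25B and ECT2) and 3 lower (CDC20, UBE2C and CCNB2) with EN2 in A549, and 1 higher (CDK1, adjusted p = 0.0267) for the difference. Over all genes it called 822 higher and 571 lower in A549, against 287 and 209 without it.

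With the 18S covariate, which cannot be told apart from EN2 in A549, CCNB2 (0.46), CDC20 (0.83) and KIF20A (0.82) turned positive there. Without 1 array, in PC9 AURKB ran from −0.36 to 0.0075, NUF2 from −0.38 to 0.058, BUB1 from −0.14 to 0.21, KIF4A from −0.099 to 0.16 and CCNB2 from −0.0034 to 0.090. KIF20A ran from −0.66 to 0.060 for the difference, and CCNB2 from −0.23 to 0.18 between the vector controls. Of the values of named genes under all alternatives, 521 kept direction and side of the threshold, 28 lost the call, 7 gained it and 12 reversed. The cause of these changes was not tested.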
